A study of Mus musculus with 24 samples.

Results

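The 5 genes described here, Fgf21, Gdf15, Angptl4, Fst and Inhbe, encode hepatokines, proteins that the liver secretes in fasting or cellular stress. They were chosen by name from the 35275 genes of the read count table, and all 5 had enough reads to be tested in both fits used below, of 13641 and 13615 genes. RNA-seq was performed on liver from male C57BL/6 mice aged 8 to 10 weeks that had been fasted for 24 h, with 4 libraries in each of 6 groups. The groups were labelled Wild type (called control), Tsc1 L-/- (Tsc1L-/-), Cpt2 L-/- (Cpt2L-/-), Tsc1Cpt2 L-/- (DKO), PPAR-a KO (Ppara KO) and Cpt2L-/- Ppara KO. Tsc1 restrains the growth kinase complex mTorc1, and Cpt2 is required to bring long-chain fatty acids into mitochondrial oxidation. Each was removed with an Albumin-Cre transgene that is active mainly in hepatocytes. Whether other cells of the liver were spared was not measured here. The controls were described in the methods as littermates with floxed Tsc1 and Cpt2 alleles. The Ppara knockouts lacked Pparα, the nuclear receptor for fatty acids that switches on fasting genes, and the labels did not limit this loss to the liver. Every group was fasted and no fed livers were among these samples, so the response to fasting itself was not measured here. The labels numbered the libraries of each group but did not state that each came from its own animal, so the p-values measure the spread between libraries.

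Fgf21 is a circulating hormone that signals through Fgf receptors with the co-receptor Klb. Gdf15 is a stress hormone of the Tgf-β superfamily whose receptor, Gfral, is found in the hindbrain, where it restrains food intake. Angptl4 inhibits lipoprotein lipase and so steers circulating triglyceride away from tissues, and Fgf21 and Angptl4 are textbook Pparα targets in fasted liver. Fst (follistatin) binds and neutralises activins, and Inhbe encodes the βE subunit of activins and inhibins, which is made mainly by hepatocytes. Fgf21, Gdf15 and Inhbe are also known to rise with Atf4, the transcription factor of the integrated stress response.

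The total read count per library ranged from 14470968 to 20371204. Tsc1 was at 37.2 to 40.1 CPM (normalised read count, scaled to library size) in controls, 18.1 to 28.8 CPM in Tsc1L-/- and 15.3 to 17.9 CPM in DKO livers, and Ppara was at 216 to 278 CPM in controls, 13.2 to 44.6 CPM in Ppara KO and 26.2 to 90.0 CPM in Cpt2L-/- Ppara KO livers. Cpt2 was at 79.9 to 105 CPM in Cpt2L-/- livers and 88.2 to 104 CPM in controls. The count of a whole gene also takes reads from exons that a floxed allele keeps, so Cpt2 counts did not check that deletion. A pair of libraries stood apart from their groups. In the library labelled Ppara KO replicate 1, Cpt2 was at 94.9 CPM against 39.8 to 51.4 CPM in the other three. In the library labelled Cpt2L-/- Ppara KO replicate 1, Cpt2 was at 123 CPM against 31.4 to 39.1 CPM, Ppara at 90.0 CPM against 26.2 to 45.7 CPM and Tsc1 at 23.8 CPM against 42.4 to 50.1 CPM. On the leading principal component of all genes this library was at 25.1, the rest of its group at -26.1 to -24.3 and the Cpt2L-/- libraries at 22.3 to 24.0, and on the next component it was at -59.5, below every other library (Cpt2L-/- at -33.2 to -15.4). Ppara KO replicate 4 had the lowest median correlation with its own group (0.945, against 0.947 to 0.960 in the other three) and a stellate marker sum of 111 CPM against 25.9 to 51.3 CPM. Cpt2L-/- Ppara KO replicate 4 had a skeletal muscle marker sum of 16.1 CPM, against 0 in the rest of its group. Where leaving out either library of the pair that stood apart changed a call, both values are given below.

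Some differences followed the groups beside the named deletions. Cd1d2 and Rps3a3, picked after their values were seen, were at 10.97 to 61.7 CPM and 33.3 to 96.1 CPM in every control, Tsc1L-/- and DKO library, but at 0.0695 to 0.868 CPM and 0.206 to 3.40 CPM in every Cpt2L-/-, Ppara KO and Cpt2L-/- Ppara KO library. In comparisons that cross this line (Cpt2L-/- and both Ppara-deficient groups against control, DKO against Cpt2L-/-, and both interactions) the genotype and whatever else separates these sets of mice or libraries cannot be told apart. The comparisons among control, Tsc1L-/- and DKO, and those of Cpt2L-/- Ppara KO with Cpt2L-/- or Ppara KO, do not cross it. Markers of hepatocytes (5 of 5 in the table, none at 0) summed to 27034 to 34810 CPM in DKO livers and 60394 to 81326 CPM in controls, and the sum also lay below all controls in Cpt2L-/- (35637 to 57599 CPM) and Cpt2L-/- Ppara KO livers (41282 to 58988 CPM). The DKO sum followed Alb (10939 to 14961 CPM against 39966 to 49073 CPM in controls), since Ttr, Apoa1, Tat and Cps1 in DKO livers overlapped the controls. Those of stellate cells and fibroblasts (6 of 6, none at 0) summed to 25.0 to 36.6 CPM in DKO livers and 51.6 to 122 CPM in controls, and also lay below every control in Cpt2L-/- Ppara KO livers (23.8 to 49.5 CPM). Lymphocyte markers summed to 4.02 to 6.78 CPM in DKO and 3.75 to 8.65 CPM in Ppara KO livers, against 9.54 to 15.7 CPM in controls, and those of cholangiocytes to 12.4 to 29.2 CPM in Ppara KO livers and 4.77 to 10.1 CPM in controls. Of the cholangiocyte genes only Sox9 (5.63 to 26.3 CPM against 2.52 to 4.55 CPM) lay above all controls in Ppara KO livers. Endothelial markers summed to 88.0 to 221 CPM in Cpt2L-/- Ppara KO livers and 266 to 310 CPM in controls. Pecam1, Stab2, Cdh5 and Kdr each lay below every control there, while Lyve1 (22.4 to 46.9 CPM against 12.8 to 33.3 CPM) did not. The part of these cell types in the results below was not tested. In bulk tissue, fewer cells of a type and less RNA per cell cannot be told apart.

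**Figure D1:**
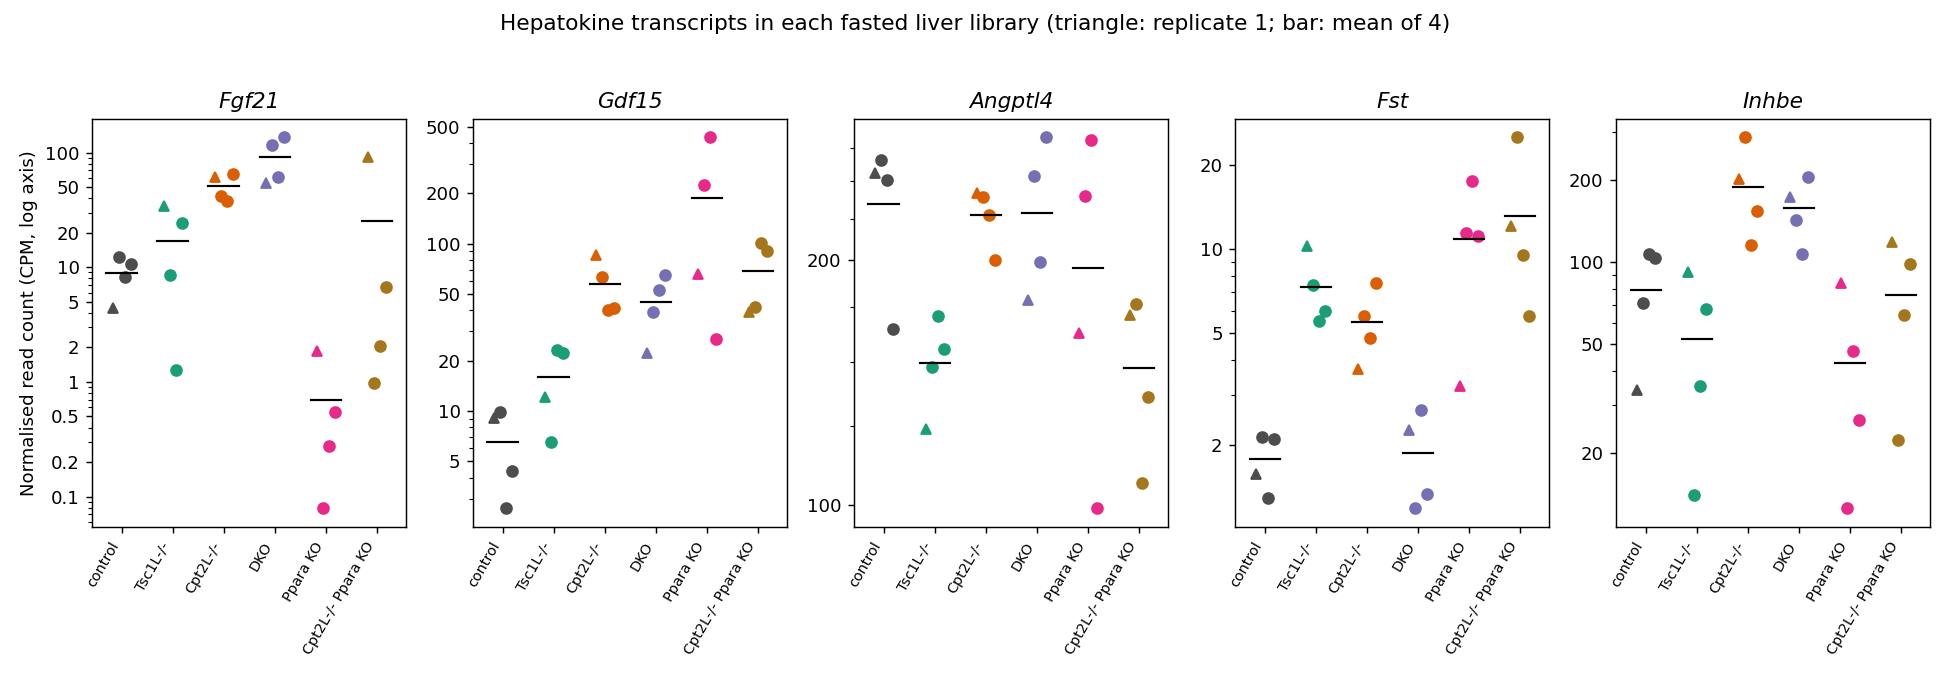
Normalised read count (CPM, log axis) of each hepatokine in all 24 libraries, by genotype. Points are libraries, triangles mark replicate 1 of each group and bars are means of 4. Fst was at 1.18 to 2.67 CPM in control and DKO livers and above 3 CPM in each library of the other four groups.

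The share of the 5 hepatokines that passed the test was set beside that of all genes tested (edgeR quasi-likelihood test, Benjamini-Hochberg adjusted p below 0.05 over all genes tested, here called passing). With Tsc1 loss alone 2 of 5 passed (Fst higher and Angptl4 lower), against 6.64% of all genes. Cpt2 loss alone raised 3 of 5 (Fgf21, Gdf15 and Fst), against 31.0% of all genes, and the combined deletion raised 2 of 5, against 36.4%. When DKO livers were compared with Cpt2L-/- livers, 1 of 5 passed, against 18.3%, and when they were compared with Tsc1L-/- livers all 5 passed, against 32.2%. The interaction of Tsc1 and Cpt2 loss, which asks if the effect of both differs from the sum of each on the log scale, was passed by 1 of 5 and 2.38% of all genes. Ppara KO livers differed from controls in 3 of 5, against 29.0%. On the Cpt2-deficient background Ppara loss changed 0 of 5 in edgeR, against 18.4% of all genes, with 3 of 5 at an unadjusted p below 0.05, 1 passing in DESeq2, 1 in limma with a pseudocount of 1 FPKM and 0 in limma with a pseudocount of 0.1 FPKM. Cpt2 loss on the Ppara-deficient background changed 1 of 5, against 25.5%. Cpt2L-/- Ppara KO livers differed from controls in 2 of 5, against 23.6%, and the interaction of Cpt2 and Ppara loss was passed by 1 of 5, against 24.0%. Several of these comparisons share the same control or Cpt2L-/- libraries, so their results are not independent.

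**Figure D2:**
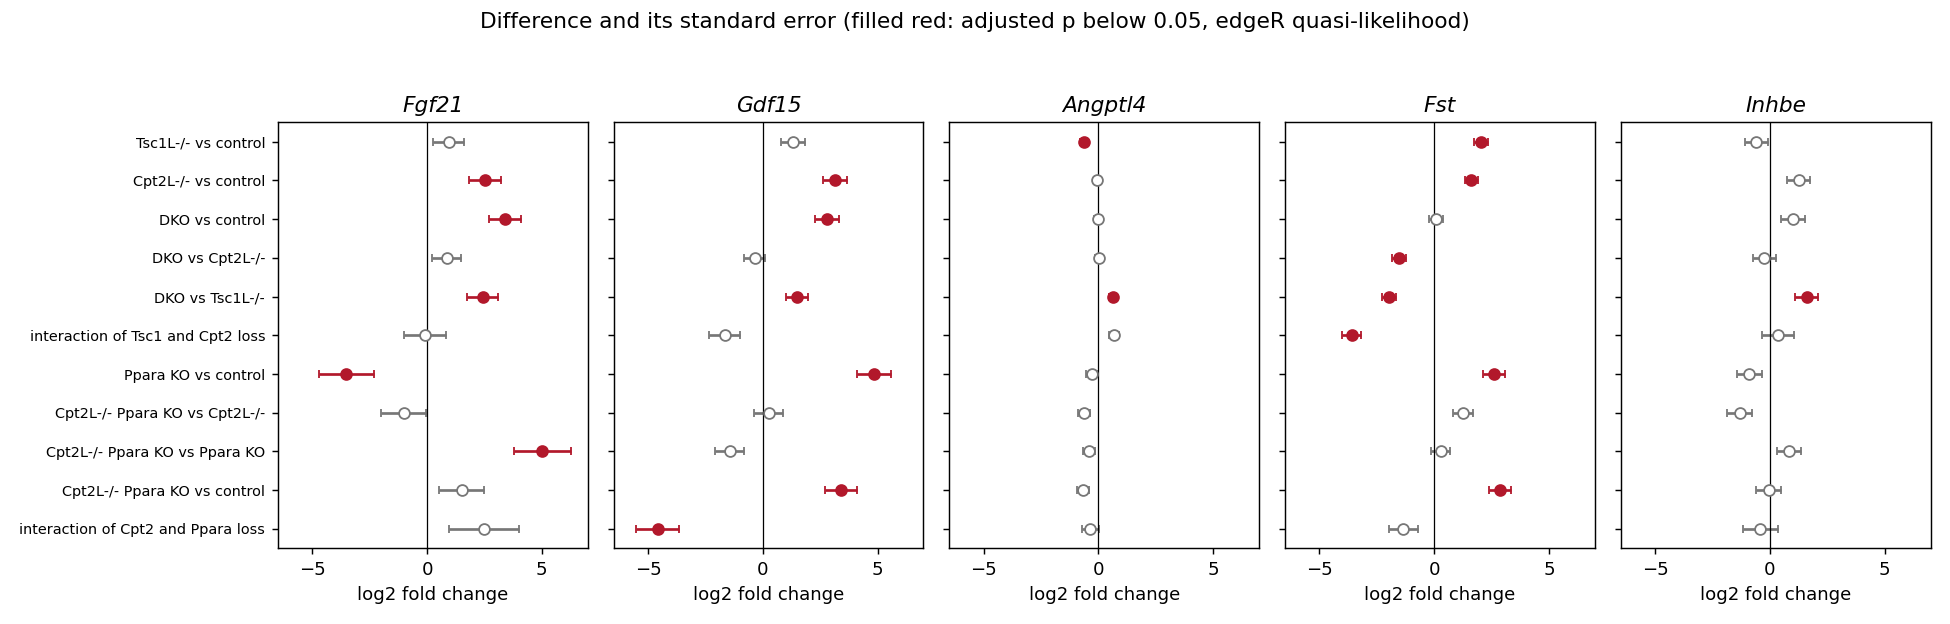
Log2 fold change (x axis) of each hepatokine in the 11 comparisons (y axis) with its standard error. Filled red points passed the edgeR test at an adjusted p below 0.05. Among the interactions, only those of Fst with Tsc1 and Cpt2 loss (-3.60) and of Gdf15 with Cpt2 and Ppara loss (-4.58) passed.

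Fgf21 (ENSMUSG00000030827, GRCm38 chr7:45613907-45615490, minus strand, 3 exons) was highest in the livers that lacked Cpt2 and had Ppara. Controls were at 4.41, 12.3, 8.23 and 10.8 CPM and Cpt2L-/- livers at 61.0, 41.9, 37.5 and 65.4 CPM. DKO livers were at 54.2, 116, 61.5 and 136 CPM, and Tsc1L-/- livers at 34.5, 8.54, 1.27 and 24.1 CPM. All Cpt2L-/- and DKO libraries lay above all controls, while the Tsc1L-/- libraries spread 27.0-fold, on both sides of the controls. The log2 fold change of DKO against control was 3.39 ± 0.71 (SE), a 10.5-fold rise (edgeR adjusted p = 0.00257). Against Tsc1L-/- livers, DKO livers were higher by 2.44 ± 0.67 (edgeR adjusted p = 0.0147), but this call was lost when only those 2 groups were fitted (adjusted p = 0.0822) and when all 24 libraries shared a fit (adjusted p = 0.0941). That last fit also ended the call for Cpt2L-/- against control (adjusted p = 0.0879). Tsc1 loss did not pass on either background, at 0.95 ± 0.68 with Cpt2 present (edgeR adjusted p = 0.470) and 0.86 ± 0.64 without it (edgeR adjusted p = 0.377), and the interaction was -0.10 ± 0.92 (adjusted p = 0.973).

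The group mean of Fgf21 was lowest in Ppara KO livers, where few reads were counted. Ppara KO livers were at 1.85, 0.0789, 0.277 and 0.549 CPM, from 41, 1, 4 and 8 reads. All lay below every control, and the highest was the library that stood apart. The log2 fold change against control was -3.51 ± 1.21 (edgeR adjusted p = 0.0413). This call was lost without the low-count filter (adjusted p = 0.102) and in 10 of 16 fits that left out a library (control replicates 2, 3 and 4, Ppara KO replicates 2, 3 and 4 and each Cpt2L-/- library, adjusted p up to 0.113), but without both libraries that stood apart it was -4.82 (edgeR adjusted p = 0.000226). Cpt2L-/- Ppara KO livers were at 90.9, 0.974, 2.07 and 6.71 CPM, so that the library that stood apart was at the level of the DKO livers and the other three were within or below the control range. With all libraries, Cpt2 loss raised Fgf21 on the Ppara-deficient background by 5.02 ± 1.24 (edgeR adjusted p = 0.0127). Without Cpt2L-/- Ppara KO replicate 1 this fell to 2.09 (edgeR adjusted p = 0.0657), and without both libraries it was 3.41 (adjusted p = 0.00956). Ppara loss on the Cpt2-deficient background went from -1.02 ± 0.97 (edgeR adjusted p = 0.485) with all libraries to -3.94 (adjusted p = 0.00137) without that library. In the order of group means, from DKO (91.9 CPM) through Cpt2L-/- (51.5), Cpt2L-/- Ppara KO (25.2), Tsc1L-/- (17.1) and control (8.91) to Ppara KO (0.688), the ranges of all neighbours overlapped except control and Ppara KO. The place of the Cpt2L-/- Ppara KO group rests on the library that stood apart, without which its mean was 3.25 ± 3.04 CPM (SD, 3 libraries), below control.

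Gdf15 (ENSMUSG00000038508, GRCm38 chr8:70629393-70632456, minus strand, 2 exons in its principal transcript) rose with Cpt2 loss, with both deletions and with Ppara loss. Controls were at 9.12, 9.92, 2.62 and 4.36 CPM, Tsc1L-/- livers at 12.1, 6.56, 23.0 and 22.2 CPM and Cpt2L-/- livers at 85.5, 63.0, 39.9 and 41.4 CPM. DKO livers were at 22.3, 38.8, 52.6 and 64.9 CPM, overlapping the Cpt2L-/- range. All Cpt2L-/- and DKO libraries lay above all controls, and the Tsc1L-/- libraries overlapped them. Cpt2L-/- livers were higher than controls by 3.16 ± 0.52, or 8.91-fold (edgeR adjusted p = 0.000486), and DKO livers by 2.81 ± 0.51 (edgeR adjusted p = 0.000916). Against Tsc1L-/- livers the DKO difference was 1.49 ± 0.48 (edgeR adjusted p = 0.0300), which did not pass in the fit of all 24 libraries (adjusted p = 0.114), without the low-count filter (adjusted p = 0.0595), with a replicate block (adjusted p = 0.0645), or when Tsc1L-/- replicate 1 or 2 or DKO replicate 3 or 4 was left out (adjusted p = 0.0674 to 0.0854).

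The Ppara KO group held the highest and the most scattered Gdf15 levels of the study. Its libraries were at 65.9, 223, 432 and 26.8 CPM, a 16.1-fold spread, and those of Cpt2L-/- Ppara KO livers were at 38.9, 41.8, 101 and 90.8 CPM. All 8 lay above all controls. The difference from control was 4.83 ± 0.75, or 28.5-fold, in Ppara KO livers (edgeR adjusted p = 0.000254) and 3.40 ± 0.70, or 10.5-fold, in Cpt2L-/- Ppara KO livers (edgeR adjusted p = 0.00333). The former was 4.01 without Ppara KO replicate 3, the highest library, and up to 5.204 when another library was left out. Cpt2 loss, which raised Gdf15 where Ppara was present, gave -1.43 ± 0.64 where it was absent (edgeR adjusted p = 0.107). That value passed without Ppara KO replicate 1, the library that stood apart (-1.73, adjusted p = 0.0495), or replicate 4 (-1.81, adjusted p = 0.0293), was -0.61 without replicate 3 (adjusted p = 0.490) and did not pass without both libraries that stood apart (-1.52, adjusted p = 0.160). The difference between these effects was -4.58 ± 0.94 (edgeR adjusted p = 0.00372) and passed in every alternative, from -4.97 to -3.76 when a library was left out and -4.67 without both libraries that stood apart. Group means ran from 187 CPM in Ppara KO livers through Cpt2L-/- Ppara KO (68.2), Cpt2L-/- (57.5), DKO (44.6) and Tsc1L-/- (15.97) to control (6.51), and each neighbouring pair overlapped. Fgf21 and Gdf15 thus went in opposite directions in Ppara KO livers, -3.51 and 4.83, and in the same direction in Cpt2L-/- livers, 2.53 and 3.16.

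**Figure D3:**
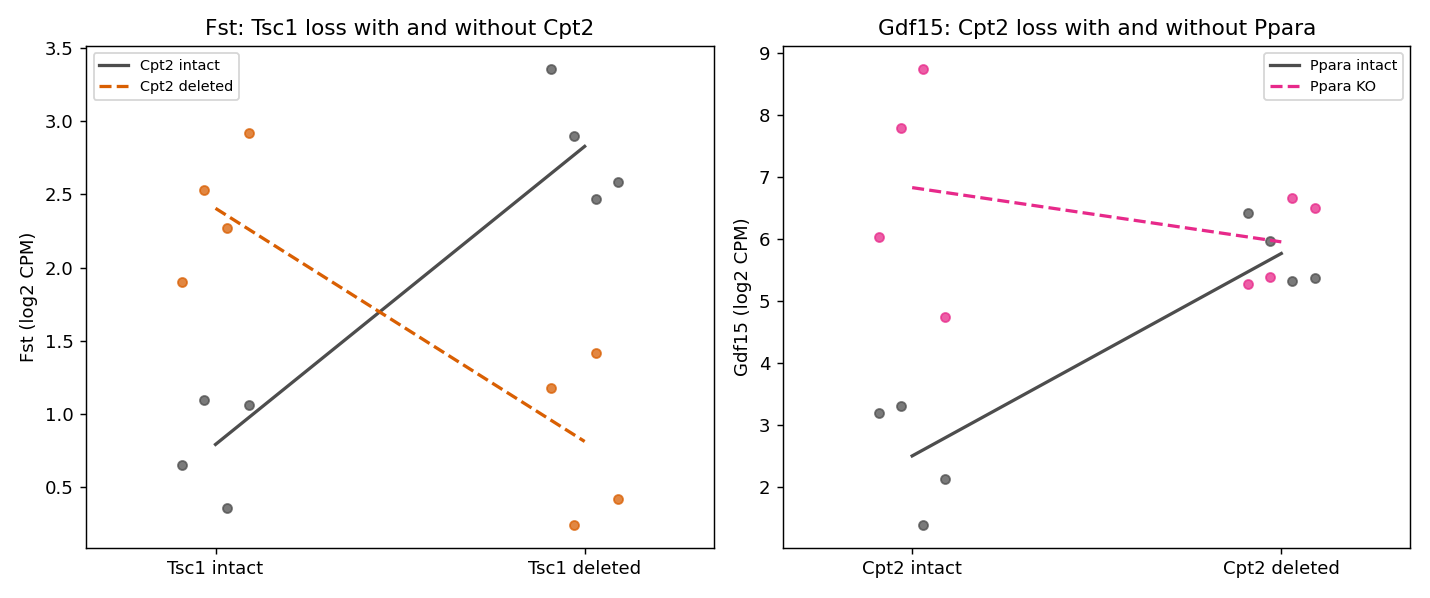
Log2 CPM of Fst with and without Tsc1 (left) and of Gdf15 with and without Cpt2 (right). Points are libraries, lines join the means of 4, and dashed lines are the background that also lacked Cpt2 (left) or Ppara (right). The lines cross for Fst (interaction -3.60) and converge for Gdf15 (interaction -4.58).

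Fst (ENSMUSG00000021765, GRCm38 chr13:114452262-114458730, minus strand, 6 exons in its principal transcript) rose with the loss of Tsc1 alone or Cpt2 alone, and did not differ detectably from control when both were lost. Controls were at 1.57, 2.14, 1.29 and 2.09 CPM and DKO livers at 2.26, 1.18, 2.67 and 1.34 CPM. Tsc1L-/- livers were at 10.3, 7.45, 5.55 and 6.00 CPM and Cpt2L-/- livers at 3.73, 5.77, 4.82 and 7.58 CPM. The DKO libraries lay on both sides of the control range and overlapped it. No Tsc1L-/- or Cpt2L-/- library reached down to the highest control or DKO library, whose values rest on only 23 to 41 reads. Fst was higher than control by 2.05 ± 0.30 in Tsc1L-/- livers (4.15-fold, edgeR adjusted p = 0.000428) and by 1.63 ± 0.30 in Cpt2L-/- livers (3.09-fold, edgeR adjusted p = 0.000482), and DKO livers differed from control by 0.08 ± 0.31 (adjusted p = 0.858). Adding Tsc1 loss to Cpt2 loss lowered it by -1.54 ± 0.30 (edgeR adjusted p = 0.00209), and adding Cpt2 loss to Tsc1 loss lowered it by -1.97 ± 0.30 (edgeR adjusted p = 7.69e-05). The interaction was -3.60 ± 0.42 (edgeR adjusted p = 0.000208), passed in every alternative and kept to -3.81 to -3.39 when a library was left out. On the log2(FPKM + 1) scale of limma, which shrinks the changes of low genes, it was -2.10, with Fst at 1.25 in Tsc1L-/- and 0.95 in Cpt2L-/- livers against control. The comparisons of Tsc1L-/- with control and of DKO with Tsc1L-/- and control, which do not cross the line drawn by Cd1d2 and Rps3a3, show the same rise and return.

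Fst was highest where Ppara was missing. Ppara KO livers were at 3.24, 11.4, 17.6 and 11.2 CPM, with the library that stood apart the lowest, and Cpt2L-/- Ppara KO livers at 12.1, 25.1, 9.52 and 5.77 CPM. Every one of these libraries lay above all controls. The differences from control were 2.60 ± 0.47 (6.06-fold, edgeR adjusted p = 0.000689) and 2.88 ± 0.47 (7.36-fold, edgeR adjusted p = 0.000521), and the 2 groups differed from each other by 0.28 ± 0.43 (adjusted p = 0.656). Against Cpt2L-/- livers, Cpt2L-/- Ppara KO livers were at 1.26 ± 0.44 (edgeR adjusted p = 0.0528), which passed without both libraries that stood apart (1.29, adjusted p = 0.0354), without Ppara KO replicate 1 (adjusted p = 0.0254) or 3 (adjusted p = 0.0484) or Cpt2L-/- Ppara KO replicate 4 (adjusted p = 0.0214), in DESeq2 (adjusted p = 0.0246) and with all 24 libraries (adjusted p = 0.0309). The interaction of Cpt2 and Ppara loss was -1.34 ± 0.63 (edgeR adjusted p = 0.127), and passed without Ppara KO replicate 1 (-1.65, adjusted p = 0.0312), without Cpt2L-/- Ppara KO replicate 2 (-1.85, adjusted p = 0.0355) and without both libraries that stood apart (-1.62, adjusted p = 0.0458). The order of group means was Cpt2L-/- Ppara KO (13.1 CPM), Ppara KO (10.9), Tsc1L-/- (7.31), Cpt2L-/- (5.48), DKO (1.86) and control (1.77), and the ranges of neighbours separated at a single step, between Cpt2L-/- and DKO.

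Inhbe (ENSMUSG00000047492, GRCm38 chr10:127349402-127351772, minus strand, 2 exons) was highest in Cpt2L-/- and DKO livers, as Fgf21 was, but its spread was wide. Controls were at 34.1, 71.0, 107 and 104 CPM, Cpt2L-/- livers at 202, 287, 115 and 154 CPM and DKO livers at 174, 143, 107 and 206 CPM. The Cpt2L-/- libraries all lay above the controls, and the lowest DKO library was level with the highest control. Neither difference passed the test, at 1.26 ± 0.51 for Cpt2L-/- (edgeR adjusted p = 0.0772) and 1.01 ± 0.51 for DKO (edgeR adjusted p = 0.135), although the former did in DESeq2 (adjusted p = 0.0442) and without Tsc1L-/- replicate 2 (adjusted p = 0.0301). Tsc1L-/- livers were at 92.3, 14.004, 35.3 and 67.4 CPM, and from this lower level DKO livers were higher by 1.60 ± 0.51 (edgeR adjusted p = 0.0295). That call was lost when Tsc1L-/- replicate 3 or DKO replicate 1 or 4 was left out (adjusted p = 0.0567 to 0.0828), and when all 24 libraries (adjusted p = 0.0584) or only those 2 groups (adjusted p = 0.0663) were fitted and without the low-count filter (adjusted p = 0.0560). Ppara KO livers were at 84.0, 12.6, 47.4 and 26.5 CPM and Cpt2L-/- Ppara KO livers at 119, 22.3, 64.2 and 99.0 CPM, both overlapping the controls. The difference of Ppara KO livers from control was -0.89 ± 0.54 (edgeR adjusted p = 0.235), and it was -1.48 (adjusted p = 0.0491) without Ppara KO replicate 1 and -1.46 (adjusted p = 0.0549) without both libraries that stood apart. The gene overlaps the antisense gene Gm47200 over its whole length, and Fst overlaps the antisense gene Gm47040 at its start, so reads of either pair can be told apart only if strand was used in counting, which is not given in the sources used here.

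Angptl4 (ENSMUSG00000002289, GRCm38 chr17:33773750-33781575, minus strand, 7 exons in its principal transcript) was the steadiest of the 5. Controls were at 256, 265, 251 and 165 CPM and Tsc1L-/- livers at 124, 148, 171 and 156 CPM, and the lowest control overlapped the highest Tsc1L-/- library. Cpt2L-/- livers were at 242, 239, 227 and 200.1 CPM and DKO livers at 179, 254, 199 and 283 CPM, within or close to the control range. Tsc1L-/- livers were lower than control by -0.64 ± 0.16 (edgeR adjusted p = 0.0244), which did not pass in the fit of all 24 libraries (adjusted p = 0.188), with only those 2 groups fitted (adjusted p = 0.0615), in limma (adjusted p = 0.0797 and 0.0814) and without control replicate 1, 2 or 3 or Tsc1L-/- replicate 1 or 2 (adjusted p = 0.0527 to 0.0756). DKO livers were higher than Tsc1L-/- livers by 0.63 ± 0.16 (edgeR adjusted p = 0.00699; 0.0722 with all 24 libraries), and differed from controls by -0.02 ± 0.16 (adjusted p = 0.949). Cpt2L-/- livers differed from controls by -0.05 ± 0.16 (adjusted p = 0.857), with 31.0% of all genes passing in that comparison. Ppara KO livers were at 163, 240.0, 281 and 99.1 CPM and differed from controls by -0.27 ± 0.26 (edgeR adjusted p = 0.462). Cpt2L-/- Ppara KO livers were at 171, 177, 107 and 136 CPM, all below every Cpt2L-/- library, at -0.62 ± 0.26 (edgeR adjusted p = 0.107), which passed without Ppara KO replicate 4 (adjusted p = 0.0385). Against control they were at -0.67 ± 0.26 (edgeR adjusted p = 0.0719), which passed in DESeq2 (adjusted p = 0.0492), with all 24 libraries (adjusted p = 0.0405) and without Ppara KO replicate 4 (adjusted p = 0.0244).

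Compared per transcript length, as FPKM (read counts divided by gene length and library size), the ranking of the 5 hepatokines changed between genotypes. In controls Angptl4 led at 72.9 ± 14.1 FPKM (SD, 4 libraries), followed by Inhbe at 35.9 ± 17.4, Fgf21 at 9.07 ± 3.23, Gdf15 at 3.89 ± 1.91 and Fst at 0.716 ± 0.140 FPKM. In DKO livers Fgf21 led at 106 ± 46.6 FPKM, ahead of Angptl4 at 80.6 ± 16.8 and Inhbe at 79.8 ± 22.6 FPKM, with overlapping ranges. In Ppara KO livers Gdf15 led at 110 ± 106 FPKM and Fgf21 was last at 0.770 ± 0.952 FPKM, below Fst at 4.27 ± 2.20 FPKM. Their ranges overlapped too, with Angptl4 above Gdf15 in Ppara KO replicates 1 and 4 and Fgf21 above Fst in replicate 1.

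**Figure D4:**
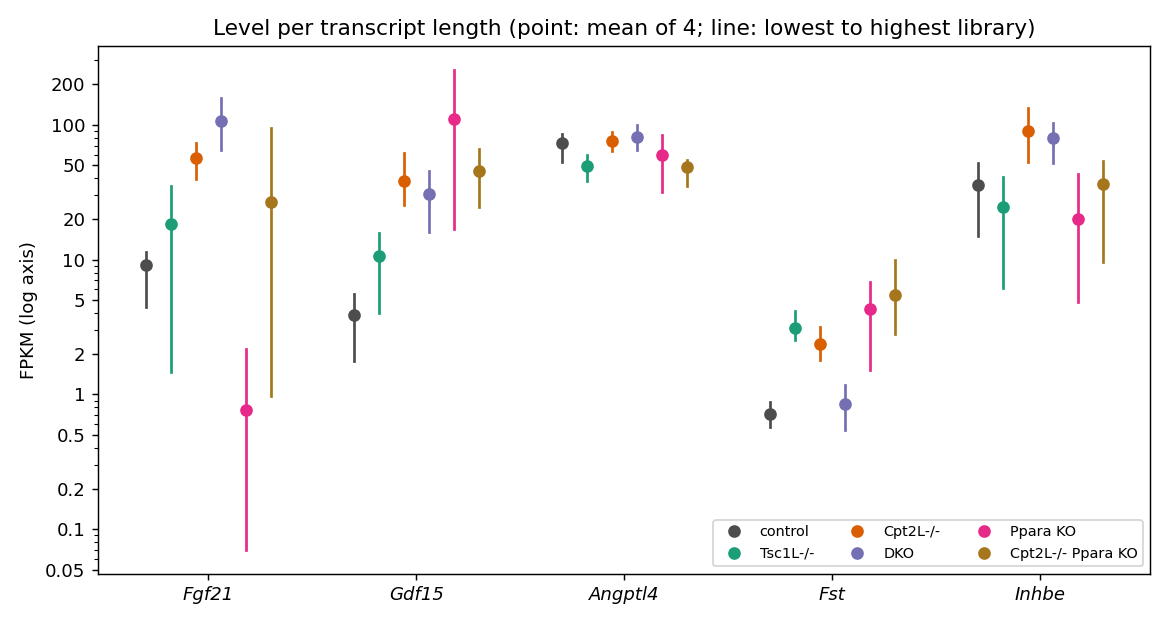
FPKM (log axis) of each hepatokine by genotype. Points are means of 4 libraries and lines run from the lowest to the highest library. Angptl4 means stay between 48.4 and 80.6 FPKM, while Fgf21 means run from 0.770 to 106 FPKM.

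Fgf21 and Inhbe levels went together from library to library. Over the 24 libraries the correlation of their log2 CPM was 0.79 (Pearson) and 0.85 (Spearman), and it was 0.65 after each group's mean was subtracted. The next pair within groups was Gdf15 and Angptl4 (0.60 within groups, 0.12 over all libraries), and Fgf21 and Gdf15 were at -0.24 over all libraries. These are descriptions over libraries that share genotypes and normalisation, with no test. The bases upstream of Fgf21, Inhbe and Gdf15 are shown because these 3 genes, of the 5, had a promoter sequence available. They are the 250 bases before the RefSeq start on build GRCm38.p6, read 5′ to 3′ on the minus strand, at chr7:45615491-45615740 for Fgf21, chr10:127351849-127352098 for Inhbe and chr8:70632457-70632706 for the outer of the Gdf15 starts. Capitals mark matches on either strand to any of 4 motifs named below.
Fgf21: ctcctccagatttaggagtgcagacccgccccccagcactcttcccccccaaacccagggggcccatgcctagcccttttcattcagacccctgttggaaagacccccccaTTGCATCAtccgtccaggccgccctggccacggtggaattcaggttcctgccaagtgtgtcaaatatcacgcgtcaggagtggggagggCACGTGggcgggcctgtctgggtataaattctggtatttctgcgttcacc
Inhbe: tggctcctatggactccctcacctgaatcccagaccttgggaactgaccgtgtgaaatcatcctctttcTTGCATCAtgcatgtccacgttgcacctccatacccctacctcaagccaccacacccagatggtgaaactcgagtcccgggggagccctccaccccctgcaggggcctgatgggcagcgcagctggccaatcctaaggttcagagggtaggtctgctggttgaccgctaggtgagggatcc
Gdf15: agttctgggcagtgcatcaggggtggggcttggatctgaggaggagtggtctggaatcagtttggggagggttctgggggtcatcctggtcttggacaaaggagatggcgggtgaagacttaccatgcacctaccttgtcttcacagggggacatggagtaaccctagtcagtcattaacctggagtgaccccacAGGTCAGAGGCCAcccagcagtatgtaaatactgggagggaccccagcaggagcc

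The motifs searched were TGATGNAA, the C/EBP-Atf response element through which Atf4 acts, the DR1 direct repeat bound by Pparα with Rxr (AGG, any base, CA, any base, AGG, any base, CA), TGTTTAC, the FoxO site, and CACGTG, the E-box of Tfeb and Mlxipl. Both Fgf21 and Inhbe hold TTGCATCA, a match to the Atf element on the other strand, beginning 139 and 181 bases before the start. Such a match was present in 3.45% of the 32851 promoter windows of this length. Fgf21 also holds CACGTG 50 bases before the start, as 6.02% of windows do in some place, and Gdf15 holds AGGTCAGAGGCCA 55 bases before its start, a match to the direct repeat that 0.338% of windows hold. The inner Gdf15 window holds CACGTG 83 bases before its start and is not printed. The FoxO letters, in 3.17% of windows, were in none of the 3 windows shown. A match is a description of letters and not a bound site. Angptl4 and Fst had no entry in the sequence table.

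**Figure D5:**
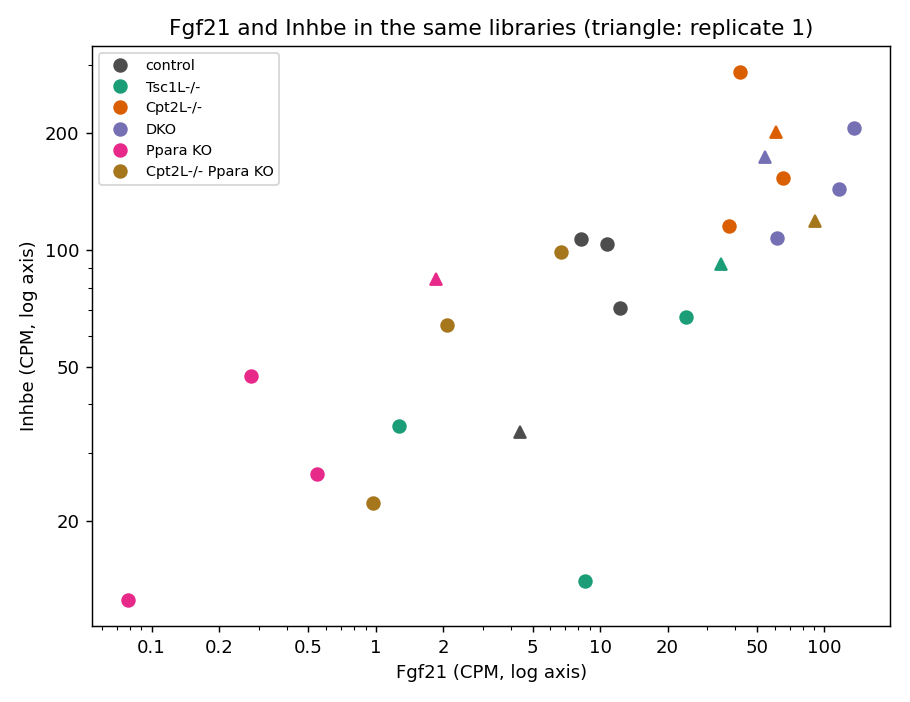
Fgf21 against Inhbe (CPM, log axes) in each of the 24 libraries, coloured by genotype, with triangles for replicate 1 of each group. Libraries with more Fgf21 tend to hold more Inhbe (Pearson 0.79 on log2 CPM), and the Ppara KO libraries sit at the low end of Fgf21.

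The genes most like each hepatokine over the 24 libraries were taken as the 3 with the highest Pearson correlation of log2 CPM among 12242 genes with a mean of at least 1 CPM. For Fgf21 these were Hsdl2 (0.95), Lipa (0.92) and Ppcs (0.91), and for Gdf15 they were Vps37c (0.90), Rusc1 (0.89) and Srrm4 (0.89). Fst was most like Rb1cc1 (0.86), Klhl15 (0.85) and 4933411K20Rik (0.84), and Inhbe most like Agpat9 (0.85), Gm2788 (0.85) and Clstn3 (0.85). Angptl4 had the weakest likenesses, with Dcun1d3 (0.77), Tec (0.77) and Nrbf2 (0.75). By Spearman correlation all 3 stayed among the leading 3 for Fst, 2 for Gdf15, 1 for Fgf21 and for Angptl4 and 0 for Inhbe.

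Of the genes that receive or process Fgf21 (Fgf receptors, the co-receptor Klb and related factors, 7 of 11 tested), 4 fell and none rose in Cpt2L-/- livers, and 6 fell in DKO livers, with a median log2 fold change of -1.004 beside 0.02 for all genes tested. That is 57.1% and 85.7% of the list, beside 31.0% and 36.4% of all genes. Alb was also below every control in Cpt2L-/- and DKO livers, and its part in this was not tested. Klb was at 45.8 ± 4.41 CPM (SD) in controls and 19.0 ± 4.77 CPM in DKO livers, a change of -1.25 ± 0.25 (edgeR adjusted p = 0.000932), and Fgfr4, the main Fgf receptor of hepatocytes, fell by -1.13 ± 0.15 in Cpt2L-/- livers (edgeR adjusted p = 1.80e-05). Thus in DKO livers Fgf21 mRNA was higher and that of its co-receptor lower. In Ppara KO livers 2 of the 7 rose and 2 fell (57.1% of the list beside 29.0% of all genes), among them Fgf1, a fibroblast growth factor that acts on the cells that make it and their neighbours, at 189 ± 20.04 CPM in controls and 66.0 ± 18.4 CPM without Ppara. Of the genes for the Gdf15 receptor system and the relatives of Gdf15 in the Tgf-β family (10 of 13 tested), at most 2 passed in any comparison, no more than 20% of the list. In Cpt2L-/- Ppara KO livers compared with Ppara KO livers, where 25.5% of all genes passed, the 2 were Furin, a protease that matures Tgf-β family proteins (-0.79 ± 0.23, edgeR adjusted p = 0.0203), and Mmp14 (-0.73 ± 0.19, adjusted p = 0.0145), a membrane protease known to cleave Gfral.

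Of the lipoprotein lipase system and the other angiopoietin-like proteins (15 of 17 tested), 3 fell and none rose in Cpt2L-/- livers, and 1 rose and 6 fell in DKO livers. That is 20% and 46.7% of the list, beside 31.0% and 36.4% of all genes tested. In Tsc1L-/- livers 1 rose and 1 fell (13.3% of the list beside 6.64% of all genes). Endothelial lipase, Lipg, fell there by -2.39 ± 0.59 (edgeR adjusted p = 0.0291). Lpl was 1.37 ± 0.38 higher (edgeR adjusted p = 0.0459), with a wide spread (36.5 ± 29.2 CPM, SD, against 14.3 ± 4.14 CPM in controls). In Ppara KO livers 4 fell and none rose (26.7% of the list beside 29.0% of all genes). Lipg fell there by -4.45 ± 0.52 (edgeR adjusted p = 2.04e-05).

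Of the other activin, inhibin and follistatin genes (14 of 20 tested), 4 rose and 5 fell in Cpt2L-/- livers, 2 rose and 7 fell in DKO livers and 4 rose and 1 fell in Ppara KO livers (6 rose and 1 fell without both libraries that stood apart, a fit in which 5206 of 13793 genes passed in this comparison). That is 64.3%, 64.3% and 35.7% of the list, beside 31.0%, 36.4% and 29.0% of all genes tested. The activin subunit genes did not move together. Inhbc, the neighbour and closest relative of Inhbe, was at 84.3 ± 20.4 CPM in controls and 29.3 to 39.6 CPM on average in the other groups, and fell in Tsc1L-/- livers (-1.23 ± 0.28, edgeR adjusted p = 0.0160) and DKO livers (-1.26 ± 0.28, edgeR adjusted p = 0.00278), where Inhbe did not pass against control. Inhbb rose from 7.56 ± 3.81 CPM in controls to 65.2 ± 44.0 CPM in Ppara KO livers (3.09 ± 0.50, edgeR adjusted p = 0.000353). It was at 12.3 ± 5.36 CPM when Cpt2 was missing too. The interaction was -3.53 ± 0.68 (edgeR adjusted p = 0.00251). Its sign was that of Gdf15 and of 1637 of the 3270 genes that passed this interaction.

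The known inducers of these hepatokines were read beside them, with 6.64%, 31.0%, 36.4% and 29.0% of all genes passing in Tsc1L-/-, Cpt2L-/-, DKO and Ppara KO livers against control. Of the Pparα targets other than the 5 hepatokines (all 22 tested), 9 fell and none rose in Tsc1L-/- livers, 13 rose and none fell in Cpt2L-/- livers (median log2 fold change 1.36 beside -0.02 for all genes tested), 11 rose and 1 fell in DKO livers, and 1 rose and 15 fell in Ppara KO livers (median -1.47 beside 0.01). On the Ppara-deficient background 13 rose with Cpt2 loss (25.5% of all genes passed), but 8 rose and 1 fell without both libraries that stood apart (2917 of 13793 genes passed). On the Cpt2-deficient background 15 fell with Ppara loss and none rose (18.4% of all genes passed), and all 22 fell without those libraries (2060 of 13793 genes passed). Cyp4a14, a fatty acid hydroxylase, was -8.48 ± 1.10 in Ppara KO livers against control (edgeR adjusted p = 5.96e-05), and Pdk4, which shuts pyruvate out of oxidation, was 4.97 ± 0.51 in Cpt2L-/- livers (edgeR adjusted p = 1.04e-05). Of the Atf4 targets (21 of 22 tested), 8 rose and 1 fell in Tsc1L-/- livers, 9 rose and 2 fell in Cpt2L-/- livers, 12 rose and 3 fell in DKO livers (median 1.56 beside 0.02) and 13 rose and 3 fell in Ppara KO livers (median 1.502 beside 0.01, and 14 rose and 2 fell without both libraries that stood apart). Psat1, an enzyme of serine synthesis, rose by 3.59 ± 0.69 in Tsc1L-/- (edgeR adjusted p = 0.00772), 3.89 ± 0.69 in Cpt2L-/- (edgeR adjusted p = 0.000821) and 6.04 ± 0.70 in DKO livers (edgeR adjusted p = 2.20e-05). Of the 23 transcription factors and receptors listed as regulators of the hepatokines, 6 rose and 3 fell in Cpt2L-/- livers, 5 rose and 5 fell in DKO livers and 5 rose and 6 fell in Ppara KO livers (7 rose and 8 fell without both libraries that stood apart). That is 39.1%, 43.5% and 47.8% of the list, beside 31.0%, 36.4% and 29.0% of all genes tested. Ppara itself is on this list and among those that fell in Ppara KO livers (-3.23 ± 0.41, edgeR adjusted p = 3.21e-05), a fall set by the genotype. Atf3, a stress-induced factor, was at 1.34 ± 0.726 CPM in controls, 34.4 ± 13.7 CPM in Cpt2L-/- and 18.9 ± 9.87 CPM in Ppara KO livers. Its interaction of Cpt2 and Ppara loss was -3.70 ± 0.59 (edgeR adjusted p = 0.000750). Its sign was that of Gdf15 and of 1637 of the 3270 genes that passed.

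Of 23 tested genes for other secreted liver factors, 1 rose and 10 fell in Cpt2L-/- livers, 2 rose and 10 fell in DKO livers, 7 rose and 4 fell in Ppara KO livers and 5 rose and 3 fell in Cpt2L-/- Ppara KO livers. That is 47.8%, 52.2%, 47.8% and 34.8% of the list, beside 31.0%, 36.4%, 29.0% and 23.6% of all genes tested. In Cpt2L-/- and DKO livers, where Fgf21 and Gdf15 were higher, the listed factors that passed were mostly lower. Enho, which encodes adropin, went from 35.9 ± 20.1 CPM in controls to 3.30 ± 1.73 CPM in Cpt2L-/- livers (-3.45 ± 0.45, edgeR adjusted p = 6.82e-05). Gpnmb was at 1.71 ± 0.626 CPM in controls, 20.2 ± 6.61 CPM in Cpt2L-/- and 94.4 ± 27.6 CPM in DKO livers (5.79 ± 0.42 in DKO against control, edgeR adjusted p = 2.87e-07). The macrophage marker Cd68 was at 6.32 to 9.84 CPM in controls, 22.5 to 50.5 CPM in Cpt2L-/- and 34.6 to 123 CPM in DKO livers, while Clec4f (38.1 to 57.7 CPM against 70.0 to 102 CPM), Vsig4 (8.65 to 14.8 CPM against 15.9 to 28.1 CPM) and Csf1r (17.5 to 37.1 CPM against 45.7 to 74.2 CPM), other macrophage markers, lay below every control in DKO livers, and the part of these cells in the Gpnmb values was not tested. In Ppara KO livers Serpina12 (vaspin) and Igfbp1, which binds insulin-like growth factors, were higher by 3.78 ± 0.32 (edgeR adjusted p = 1.29e-06) and 2.40 ± 0.41 (edgeR adjusted p = 0.000401).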

How the data were processed

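Liver RNA was measured in 24 libraries prepared with the Illumina TruSeq stranded mRNA kit and sequenced as single reads of 75 bases. The authors deposited a table of read counts per gene and a table of FPKM values, both with a gene length column in bases. The submitters' processing notes list STAR 2.5, STAR-Fusion, HTSeq 0.6.1, Bowtie 0.12.2, TopHat, DESeq2 and edgeR, without roles. They also list the builds mm8 and mm9, but the deposited gene coordinates are those of GRCm38. The deposited FPKM of every gene and library equals its read count divided by gene length and by the library's total count, within a relative difference of 1e-06. How strand and multiply mapped reads were treated is not given in the sources used here, and this bears on genes with antisense partners.

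Counts were tested with edgeR 4.0.16 (R 4.3.3), using TMM size factors, the filterByExpr filter with a minimum count of 10 and a minimum total of 15, and robust quasi-likelihood fits, in a fit of 16 libraries for control, Tsc1L-/-, Cpt2L-/- and DKO and another of 16 for control, Cpt2L-/-, Ppara KO and Cpt2L-/- Ppara KO. P-values were adjusted by Benjamini-Hochberg over all genes tested, with a threshold of 0.05. Standard errors are the log2 fold change over the root of the F statistic. CPM were scaled by TMM over all 24 libraries. Correlations used log2 CPM with a prior count of 2. Alternatives were other size factors, no filter, DESeq2 1.42.0, limma 3.58.1 on log2(FPKM + 1) and log2(FPKM + 0.1), other sets of libraries, a replicate block and each library left out; leaving out both libraries that stood apart was added after the data were seen. The script was tested on simulated data. No pair of replicate libraries agreed within sampling noise (chi-square per gene of at least 24.1 over 36 pairs).

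The members and gene lists were chosen with earlier results of these data known. Named beside the 5 members, by rule, are the 3 genes most correlated with each, from each list genes among the 2 with the largest change that passed and had a mean of at least 1 CPM, and Tsc1, Cpt2 and Ppara. Cd1d2, Rps3a3 and the single cell type markers named were chosen after their values were seen.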

Additional observations from a re-analysis of the deposited data

Results flagged for a closer look

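Fgf21 in the library labelled Cpt2L-/- Ppara KO replicate 1 was at 90.9 CPM, far from the 6.71 CPM of the next library of its group. Angptl4 in control replicate 4 was at 165 CPM, below the 251 CPM of the next control. Of 30 sets of 4 libraries examined in this way, about 1 in 20 would be picked out by chance. Effects also differed between backgrounds for a pair of genes, by the interaction terms of the edgeR fits. Tsc1 loss changed Fst differently with and without Cpt2, with a log2 interaction of -3.60 (adjusted p = 0.000208 in edgeR), and Cpt2 loss changed Gdf15 differently with and without Ppara, with a log2 interaction of -4.58 (adjusted p = 0.00372). Both interactions cross the line drawn by Cd1d2 and Rps3a3, so the genotype and that difference cannot be told apart.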

How the results depend on the processing

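Of the 21 calls on single hepatokines, 13 passed in every alternative: Fst in Tsc1L-/-, Cpt2L-/-, Ppara KO and Cpt2L-/- Ppara KO livers against control, in DKO against Cpt2L-/- and Tsc1L-/- livers and in the interaction of Tsc1 and Cpt2 loss, Gdf15 in Cpt2L-/-, DKO, Ppara KO and Cpt2L-/- Ppara KO livers against control and in the interaction of Cpt2 and Ppara loss, and Fgf21 in DKO livers against control. Calls on Angptl4 and Inhbe, and those on Fgf21 outside that comparison, did not hold in every alternative, nor did that on Gdf15 in DKO against Tsc1L-/- livers. Fst in control and DKO livers rests on 23 to 41 reads a library and Fgf21 in Ppara KO livers on 1 to 41, which limits their precision.

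The number of hepatokines that passed in DKO against Tsc1L-/- livers went from 5 to 3 without the low-count filter, 1 with all 24 libraries and 3 with the 2 groups alone, and ran from 3 to 5 when a library was left out. Calls over all genes went from 4392 of 13641 to 3948 of 22289, 2975 of 13987 and 3780 of 12830 in the same fits. In Tsc1L-/- livers against control it was 1 in place of 2 with all 24 libraries, with the 2 groups alone and in limma with either pseudocount, and 1 to 2 when a library was left out, with 906 of 13641 genes called over all, 400 of 13987 with all 24 libraries and 466 of 13012 with the 2 groups alone. In Cpt2L-/- Ppara KO against Cpt2L-/- livers it was 1 in place of 0 in DESeq2, with all 24 libraries and in limma with a pseudocount of 1, ran from 0 to 1 when a library was left out, and was 2 without both libraries that stood apart, an alternative chosen after seeing the data. Against Ppara KO livers it was 0 in place of 1 with the 2 groups alone, where calls over all genes fell from 3475 of 13615 to 111 of 12784, and 0 to 2 when a library was left out. For the interaction of Cpt2 and Ppara loss it ran from 1 to 2, and was 2 without both libraries. In Cpt2L-/- Ppara KO livers against control it was 3 in place of 2 in DESeq2, with all 24 libraries and without Ppara KO replicate 4, each with Angptl4 added. The causes were not tested.

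The values that changed direction were not called. In limma with a pseudocount of 1 or 0.1, Angptl4 was 0.0687 and 0.0697 in Cpt2L-/- and 0.143 and 0.144 in DKO livers against control, the Fgf21 interaction of Tsc1 and Cpt2 loss was 0.45 and 0.53, and Fgf21 in Cpt2L-/- Ppara KO livers against control was -0.15 and -0.37 (-1.40 without both libraries). The Fgf21 interaction of Cpt2 and Ppara loss was -0.11 with a pseudocount of 1. When a library was left out, Angptl4 ran from -0.155 to 0.0457 in Cpt2L-/- and -0.147 to 0.0859 in DKO livers against control and from -0.0849 to 0.132 in DKO against Cpt2L-/- livers. Fgf21 ran from -1.41 to 1.91 in Cpt2L-/- Ppara KO livers against control, from -0.48 to 0.50 in the interaction of Tsc1 and Cpt2 loss and from -0.43 to 3.80 in that of Cpt2 and Ppara loss. Fst ran from -0.13 to 0.25 in DKO livers against control and from -0.23 to 0.61 in Cpt2L-/- Ppara KO against Ppara KO livers, and Gdf15 from -0.0016 to 0.49 in Cpt2L-/- Ppara KO against Cpt2L-/- livers. Inhbe ran from -0.447 to 0.0220 in DKO against Cpt2L-/- livers, from -0.35 to 0.26 in Cpt2L-/- Ppara KO livers against control and from -0.73 to 0.16 in the interaction of Cpt2 and Ppara loss.

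With a replicate block the number passing was 4 in place of 5 in DKO against Tsc1L-/- livers, where Gdf15 was lost (adjusted p = 0.0645), and otherwise as before, and the Fgf21 interaction of Tsc1 and Cpt2 loss was 0.16 and Fgf21 in Cpt2L-/- Ppara KO livers against control -0.19. Deviations of libraries sharing a number correlated at -0.26 to 0.17 and -0.10 to 0.22 in the 2 fits. The labels do not state if such libraries also share a litter or a preparation, and these correlations cannot decide it.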
